A study of Homo sapiens with 10 samples.

Results

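The RAB, ARL and ARF genes encode small GTPases of membrane traffic, and their expression was examined in SH-SY5Y cells, a human neuroblastoma line used as a model of catecholaminergic neurons. Genes were taken where a row of the deposited table carried exactly 1 gene symbol that began with RAB, ARL or ARF and a digit, which gave 74 rows and, with the row of the highest mean kept for each gene, 72 of 14232 genes. Of these, 60 were GTPases (48 RAB, 7 ARL and 5 ARF), 11 were partner proteins that carry a GTPase's name, such as RAB11FIP1 and ARL2BP, and 1 was the pseudogene RAB9BP1. A further 36 genes of these families or their named partners, among them RAB7B, ARL2 and RAB1B, had no row with a single symbol. The series holds 10 exon arrays, 5 from cells treated with paraquat (numbered 8, 12, 14, 18 and 20 in the titles) and 5 from untreated cells (ctrl 7, 11, 13, 17 and 19). Neither dose nor duration is stated in the labels. Paraquat is a herbicide that cycles between redox states and gives rise to superoxide. Values are log2 expression after RMA, a method that subtracts background, equalises the arrays and summarises the probes of a transcript cluster. Paraquat was compared with ctrl to ask which transcripts differed.

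Small GTPases switch between a GTP-bound state, in which they recruit effectors to a membrane, and a GDP-bound state. Exchange factors load GTP, and GTPase-activating proteins bring about its hydrolysis. RAB proteins are held on membranes by prenyl groups and mark the identity of an organelle, so that tethers, motors and fusion factors are brought to the right place. ARF proteins recruit coats such as COPI and clathrin adaptors to the Golgi and endosomes, and several ARL proteins act in cilia, on lysosomes or on the trans-Golgi network. In neurons and neuroendocrine cells RAB3 and RAB27 proteins sit on synaptic vesicles and dense-core granules, where they prepare them for regulated release.

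The median log2 value of an array was 6.78 to 6.93. Across rows, arrays of the same group correlated at 0.977 to 0.993 and arrays of different groups at 0.961 to 0.981. Ctrl 11 stood apart: it was the highest ctrl array for 34 of the 72 genes and the lowest for 17. The sympathetic neuroblast markers fixed for the cell line were present, with ELAVL4, GATA3, ISL1, PHOX2A and STMN2 averaging between 8.74 and 12.11 in paraquat and between 9.87 and 12.44 in ctrl arrays. The leukocyte markers PTPRC (2.72 in paraquat and 2.67 in ctrl arrays), CD3E and LYZ averaged within the dimmest 20% of rows. CD68 lay above the array medians, at 9.07 in paraquat and 7.74 in ctrl arrays, and CD14 averaged 5.86 and 5.21. Of 5 leukocyte markers, CD68 and CD14 rose and 0 fell, with list means of 4.49 to 4.61 in paraquat arrays and 4.05 to 4.27 in ctrl arrays. Of 7 fibroblast or mesenchymal markers 0 rose and LUM and THY1 fell, with list means of 7.48 to 7.61 in paraquat arrays and 8.14 to 8.40 in ctrl arrays, and of 6 glial markers 0 rose and FABP7 fell (4.01 to 4.55 against 4.12 to 4.54). The part of these shifts in the changes given below was not tested. In RNA from whole cultures, fewer cells of a kind and less of a transcript in each cell cannot be told apart. Since no label ties an array to a culture of its own, each p-value rests on the spread among arrays, and that spread may be technical.

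Paraquat-treated cells had lower levels of 5 of the 9 RAB genes placed on secretory granules and synaptic vesicles. ARL3, ARL15, RAB42 and ARL6IP5 were also lower, and RAB39B and RAB33B were higher. Among GTPases of the endoplasmic reticulum and Golgi 16.7% passed the test, and among those of early and recycling endosomes 18.8%, against 23.8% of all genes. Of the 72 genes, 4 rose and 15 fell at an adjusted p under 0.05 by limma, the linear model with moderated variances that was fitted to all 22011 rows, or 26.4% in either direction. Over all genes 9.55% rose and 14.2% fell, 23.8% in either direction. Over all rows 8.51% rose and 11.5% fell, 20.0% in either direction. The share among the 72 genes is near this background and is not a result about them as a whole. For 17 of the 72 genes (23.6%) paraquat and ctrl arrays did not overlap, against 19.9% of all genes. The median log2 change was -0.07, against 0.00 (-0.0041) over all genes. The changes lay between -1.20 and 0.96, and 3 of the 19 called genes changed at least 2-fold, namely RAB42, ARL15 and ARL6IP5. Of the 19 genes, 14 remained called with any single array left out. The number that rose was 2 without any one of paraquat 14 or 20 and ctrl 7, 17 or 19.

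**Figure D1:**
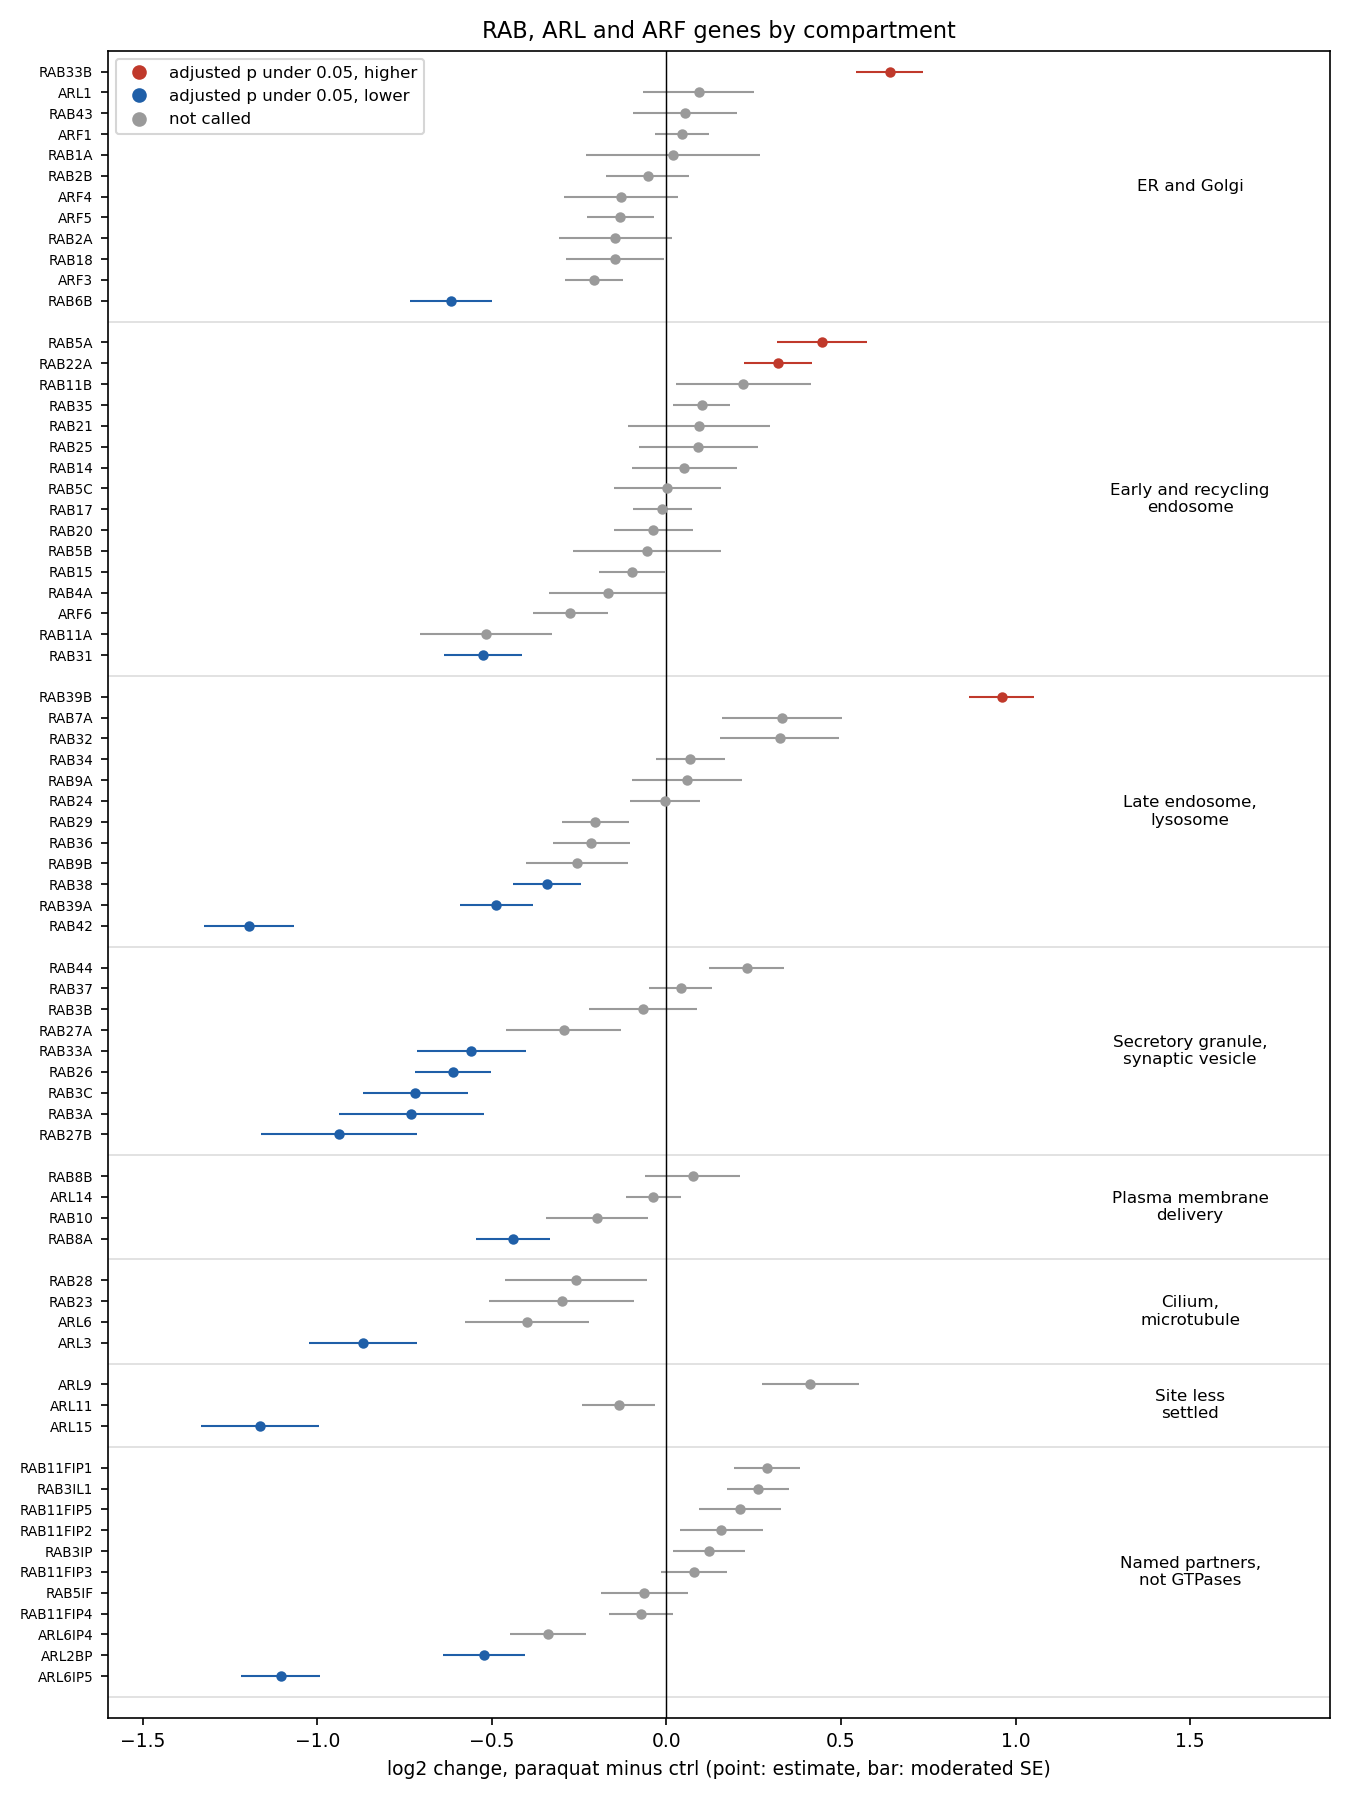
Log2 change of each gene, paraquat minus ctrl, on the horizontal axis, with genes grouped by compartment down the page, and the pseudogene left out. Points are estimates and bars moderated standard errors over 5 paraquat and 5 ctrl arrays. Red marks the 4 genes that rose, blue the 15 that fell and grey those not called. The 5 lowest genes of the secretory granule group lie between -0.94 and -0.56.

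The secretory granule and synaptic vesicle group held the highest share of lowered genes among the groups with at least 5 members: 5 of 9 fell (55.6%) and 0 rose, where 14.2% of all genes fell. RAB33A, among those that fell, and RAB44, among those that did not pass, could be placed elsewhere. The median log2 change of the group was -0.56, and the mean over its 9 genes lay between 6.15 and 6.30 in the paraquat arrays and between 6.57 and 6.70 in the ctrl arrays, with no overlap. Gene by gene, paraquat and ctrl arrays did not overlap for 2 of the 9 (22.2%), near the 19.9% of all genes. RAB27B, which docks granules at the plasma membrane, had 6.33, 5.33, 6.02, 5.49 and 5.80 in paraquat arrays 8, 12, 14, 18 and 20, against 6.89, 6.08, 6.75, 7.15 and 6.77 in ctrl arrays 7, 11, 13, 17 and 19. The groups overlapped because ctrl 11 lay below paraquat 8, and the other ctrl arrays lay above every paraquat array. RAB27B fell by 0.94 ± 0.22 (log2 change ± moderated SE, limma adjusted p = 0.0122).

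RAB3A, the synaptic vesicle RAB that binds RIM and rabphilin, had 5.85, 6.04, 5.84, 6.48 and 6.40 in the paraquat arrays, against 6.40, 6.39, 7.27, 6.99 and 7.20 in the ctrl arrays in the same order. Paraquat 18 and 20 reached the level of ctrl 7 and 11, and the other arrays did not overlap. RAB3A fell by 0.73 ± 0.21 (adjusted p = 0.0292), a call that was lost without any one of paraquat 8, 12 or 14 and ctrl 13, 17 or 19 (adjusted p between 0.0586 and 0.0713). RAB3C, a close relative on the same vesicles, had 7.54, 7.05, 7.41, 6.84 and 6.82 in the paraquat arrays and 7.99, 7.82, 7.62, 7.91 and 7.90 in the ctrl arrays. All its paraquat arrays lay below all ctrl arrays, and it fell by 0.72 ± 0.15 (adjusted p = 0.00607).

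RAB26, which has been placed on secretory granules and on clusters of synaptic vesicles, had 7.18, 7.14, 7.03, 7.61 and 7.29 in the paraquat arrays and 7.77, 7.86, 7.83, 7.95 and 7.90 in the ctrl arrays. The groups did not overlap, and paraquat 18 was the array nearest to ctrl. RAB26 fell by 0.61 ± 0.11 (adjusted p = 0.00228). RAB33A, a brain-enriched RAB of axonal vesicle transport, averaged 6.51 ± 0.31 in paraquat and 7.07 ± 0.21 in ctrl arrays (SD, n = 5 each), with a change of -0.56 ± 0.16 (limma adjusted p = 0.0265). Its call was lost without any one of paraquat 8 or 18 and ctrl 11, 17 or 19 (adjusted p between 0.0508 and 0.0638). The group's count was 3 of 9 without paraquat 8, without ctrl 17 or without ctrl 19.

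The other 4 genes of the group did not pass. RAB27A, which also serves granule docking, had a change of -0.29 ± 0.16 (adjusted p = 0.265), and its ctrl 11 value of 8.37 stood above 7.5001 to 7.755 in the other ctrl arrays. RAB3B averaged 6.46 ± 0.31 in paraquat and 6.52 ± 0.21 in ctrl arrays (limma adjusted p = 0.835). The granule RAB RAB37, close to the dimmest 20% of rows at 4.21 in paraquat and 4.17 in ctrl arrays, had a change of 0.04 (limma adjusted p = 0.823). RAB44, a large RAB best known from blood and bone cells, had one of 0.23 (adjusted p = 0.171). Beside these decreases, 5 of the 6 sympathetic neuroblast markers fell and 0 rose, among them ISL1 by 1.21 and PHOX2A by 1.08, while TH, tyrosine hydroxylase, had a change of -0.06 (adjusted p = 0.685). The means over the 6 markers lay between 8.91 and 9.14 in paraquat arrays and between 9.67 and 9.84 in ctrl arrays. Their part in the decreases of the RAB genes was not tested.

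**Figure D2:**
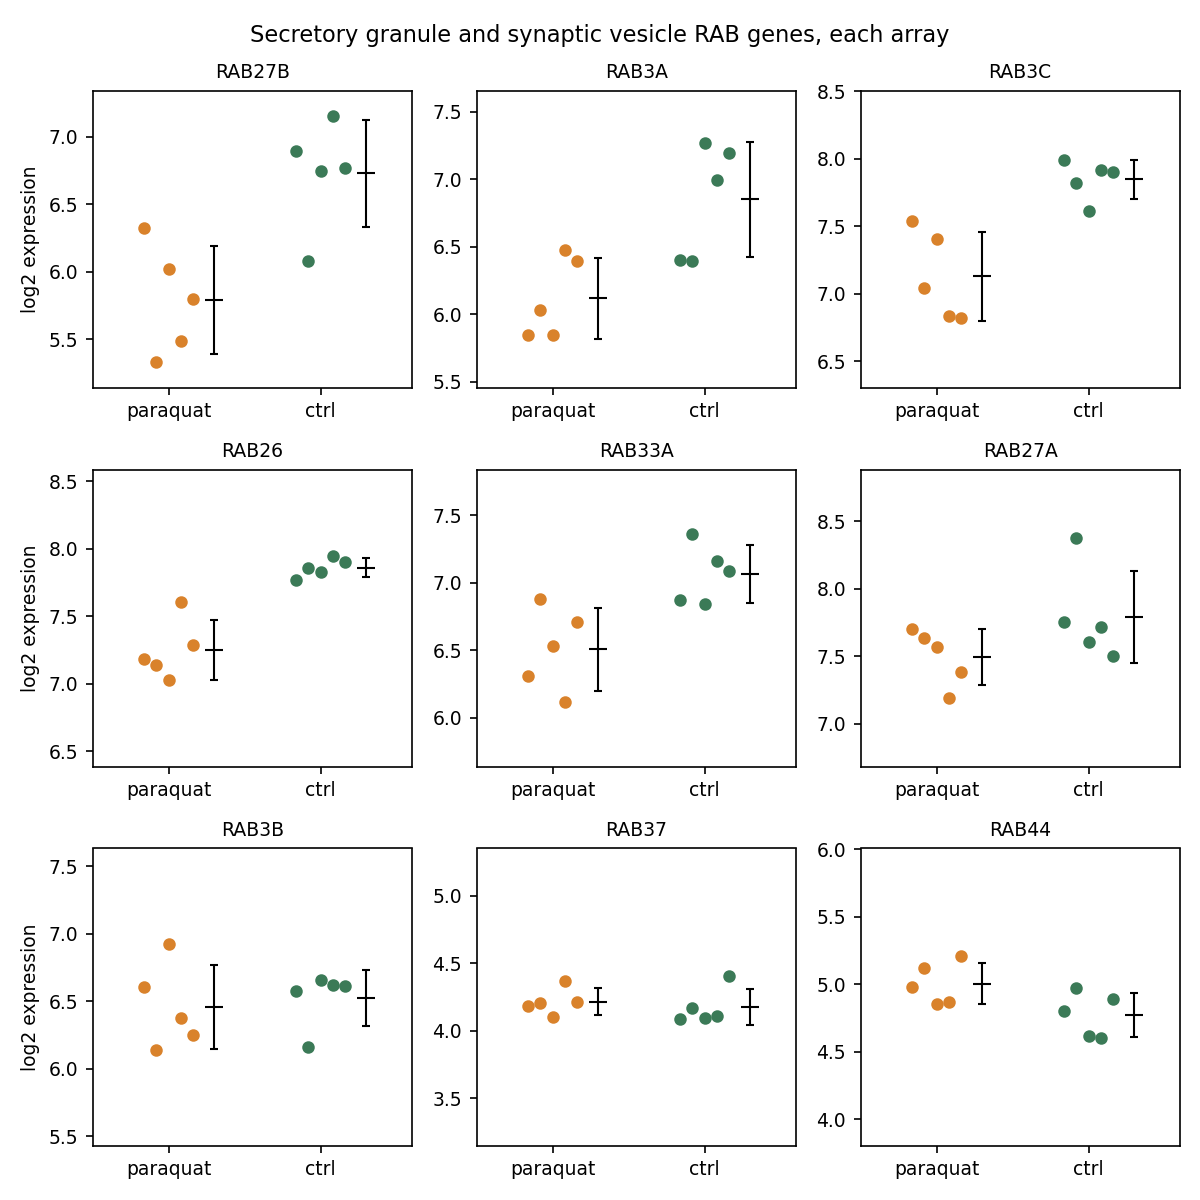
Log2 expression of the 9 secretory granule and synaptic vesicle genes in each array, paraquat left and ctrl right, with arrays in the order of their numbers. Coloured points are single arrays and black marks the mean with SD over 5 arrays. All panels span the same range of log2 units around their own midpoint. RAB3C and RAB26 show no overlap between groups, and RAB3B and RAB37 show groups that lie on each other.

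For the genes called, the RefSeq promoter table of build GRCh38.p14 held 13 of 19, and the 250 bases before the gene's start were read 5′ to 3′ on the gene's strand. Both strands were searched for CACGTG, the E-box bound by MYC, USF and TFEB family factors, TGACNNNGC, the core of the antioxidant response element, TGATGNAA, an element bound by ATF4 dimers, and TGANTCA, the AP-1 site. A run that begins TGACTCA can satisfy both the antioxidant core and the AP-1 site. An E-box was found for RAB5A, ARL3 and RAB31 and an antioxidant core for RAB5A, and no ATF4 or AP-1 match was found for the 13. Over all 35116 promoters of the same length, 6.34% held the E-box, 10.9% the antioxidant core, 3.14% the ATF4 element and 6.57% the AP-1 site. Over the 54 of the 72 genes with a promoter, each counted once, the shares were 11.1%, 14.8%, 1.85% and 3.70%. The 35116 promoters were not limited to genes measured here and were not matched in base content, so the shares are set side by side only as a description. The E-box was in 1 of 2 raised and 2 of 11 lowered genes, so it was found on both sides. The following 5 are shown because they are the 3 called genes with a match and the synaptic vesicle genes RAB3A and RAB3C, which fell together and held none. Capitals mark the matched letters, and in RAB5A the antioxidant core, on the opposite strand, overlaps the E-box. A match is a description of the sequence and not a site of binding.
RAB5A, chr3:19946847-19947096 on the plus strand: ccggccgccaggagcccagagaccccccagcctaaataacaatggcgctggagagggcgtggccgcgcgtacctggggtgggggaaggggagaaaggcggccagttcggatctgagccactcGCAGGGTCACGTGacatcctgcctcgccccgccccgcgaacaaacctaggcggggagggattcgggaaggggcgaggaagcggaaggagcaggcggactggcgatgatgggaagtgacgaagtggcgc
ARL3, chr10:102714398-102714647 on the minus strand: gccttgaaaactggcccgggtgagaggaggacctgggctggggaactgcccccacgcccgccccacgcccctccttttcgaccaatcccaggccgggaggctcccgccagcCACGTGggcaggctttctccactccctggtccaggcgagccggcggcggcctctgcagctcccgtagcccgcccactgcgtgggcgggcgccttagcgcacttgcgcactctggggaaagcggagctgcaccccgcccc
RAB31, chr18:9708051-9708300 on the plus strand: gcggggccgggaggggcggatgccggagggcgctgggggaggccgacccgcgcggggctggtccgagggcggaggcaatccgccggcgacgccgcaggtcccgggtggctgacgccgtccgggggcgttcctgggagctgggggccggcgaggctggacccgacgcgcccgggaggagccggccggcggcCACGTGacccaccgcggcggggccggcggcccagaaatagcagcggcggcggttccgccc
RAB3A, chr19:18204043-18204292 on the minus strand: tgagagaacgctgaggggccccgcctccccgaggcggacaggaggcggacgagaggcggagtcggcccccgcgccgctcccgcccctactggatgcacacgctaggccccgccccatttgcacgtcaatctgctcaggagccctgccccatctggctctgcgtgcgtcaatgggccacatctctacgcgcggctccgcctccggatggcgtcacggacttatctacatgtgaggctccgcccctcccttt
RAB3C, chr5:58582825-58583074 on the plus strand: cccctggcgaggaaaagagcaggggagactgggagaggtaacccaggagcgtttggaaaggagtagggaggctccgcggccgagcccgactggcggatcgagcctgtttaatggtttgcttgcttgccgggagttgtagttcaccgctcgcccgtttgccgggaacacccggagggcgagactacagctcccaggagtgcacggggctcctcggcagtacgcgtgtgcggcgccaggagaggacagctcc

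Late endosomal and lysosomal GTPases sort cargo for degradation and position lysosomes. Among the genes placed in this group, 1 of 12 rose (8.33%) and 3 fell (25%), with a median of -0.10. The gene that rose, RAB39B, could be placed elsewhere, as could RAB42 among those that fell. Over all genes 9.55% rose and 14.2% fell, so the share that rose is near the background. RAB39B, an endosomal and Golgi RAB that is mutated in X-linked intellectual disability with early parkinsonism, had 8.28, 8.49, 8.43, 8.21 and 8.48 in the paraquat arrays and 7.23, 7.57, 7.38, 7.43 and 7.48 in the ctrl arrays. Every paraquat array lay above every ctrl array by a wide margin. RAB39B rose by 0.96 ± 0.09, a 1.95-fold increase (limma adjusted p = 4.19e-05), the largest increase among the 72 genes.

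Its relative RAB39A, found on late endosomes and phagosomes, averaged 7.23 ± 0.14 in paraquat and 7.71 ± 0.17 in ctrl arrays (SD, n = 5 each) and fell by 0.49 ± 0.10 (limma adjusted p = 0.00693). RAB42, a little-studied RAB whose place in this group is uncertain, had 4.98, 4.57, 5.15, 4.999 and 5.10 in the paraquat arrays and 5.88, 6.09, 6.31, 6.11 and 6.37 in the ctrl arrays. The groups were well apart, and RAB42 fell 2.29-fold, with a log2 change of -1.20 ± 0.13 (adjusted p = 8.57e-05), the largest decrease of the 72. RAB38, of melanosomes and other lysosome-related organelles, fell by 0.34 ± 0.10 (adjusted p = 0.0302). That call was lost without any one of paraquat 8, 14 or 20 and ctrl 11, 17 or 19 (adjusted p between 0.0510 and 0.0749), and also after quantile normalization and after median centring.

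RAB7A, the principal RAB of late endosomes, averaged 11.25 ± 0.40 in paraquat and 10.92 ± 0.13 in ctrl arrays, and its change of 0.33 ± 0.17 did not pass (limma adjusted p = 0.224, n = 5 each). RAB29, a lysosomal and Golgi RAB that recruits the kinase LRRK2, had a change of -0.20 ± 0.10 (adjusted p = 0.182). RAB32, another partner of LRRK2, had one of 0.32 ± 0.17 (adjusted p = 0.237). The remaining changes in this group lay between -0.26 for RAB9B and 0.07 for RAB34.

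Of 16 GTPases of early and recycling endosomes, 2 rose and 1 fell (18.8% called, against 23.8% of all genes), with a median of 0.00 (-0.0041). RAB5A, which drives early endosome fusion, had 9.87, 10.03, 10.36, 9.90 and 10.01 in the paraquat arrays and 9.58, 9.96, 9.51, 9.54 and 9.36 in the ctrl arrays. Only ctrl 11 overlapped the paraquat arrays. RAB5A rose by 0.44 ± 0.13 (limma adjusted p = 0.0319), but the call was lost without any one of paraquat 12, 14 or 20 and ctrl 7, 13, 17 or 19 (adjusted p between 0.0569 and 0.0741). RAB22A, a close relative of RAB5 in endosomal sorting, had 9.10, 9.06, 9.30, 9.07 and 8.98 in the paraquat arrays and 8.58, 8.82, 8.98, 8.84 and 8.68 in the ctrl arrays. Paraquat 20 and ctrl 13 nearly met, at 8.982 and 8.981. RAB22A rose by 0.32 ± 0.10 (adjusted p = 0.0398), and with any one array other than ctrl 13 left out the adjusted p lay between 0.0502 and 0.0920, past the threshold in each case. With 1 array left out, 1 gene of this group rose without paraquat 8, paraquat 18, ctrl 11 or ctrl 13 and 0 rose without any of the others.

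RAB31, which carries cargo between the trans-Golgi network and endosomes, averaged 7.87 ± 0.15 in paraquat and 8.40 ± 0.19 in ctrl arrays (SD, n = 5 each), and all paraquat arrays were below all ctrl arrays. It fell by 0.53 ± 0.11 (limma adjusted p = 0.00658). RAB11A, the RAB of recycling endosomes, had a change of -0.52 ± 0.19 (adjusted p = 0.0827). Its ctrl 11 value was 11.28, against 10.39 to 10.64 in the other ctrl arrays, and the change was -0.36 without that array (adjusted p = 0.115). Paraquat 12, at 10.57, was the highest of the paraquat arrays, and without it RAB11A passed, with a change of -0.63 (limma adjusted p = 0.0374). It passed also with array weights (-0.44, adjusted p = 0.0324) and without both ctrl 11 and paraquat 12 (-0.47, adjusted p = 0.0139). RAB5C had a change of 0.00 (0.0029, adjusted p = 0.994) and ARF6, the ARF of the plasma membrane and its recycling pathway, one of -0.28 ± 0.11 (adjusted p = 0.101).

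Of 12 GTPases of the endoplasmic reticulum and Golgi, 1 rose and 1 fell (16.7% called, against 23.8% of all genes), and the median was -0.09. RAB33B, a Golgi RAB that also binds the autophagy protein ATG16L1, had 9.15, 8.81, 9.11, 8.98 and 8.97 in the paraquat arrays and 8.48, 8.40, 8.35, 8.44 and 8.14 in the ctrl arrays. The groups did not overlap, and RAB33B rose by 0.64 ± 0.10 (limma adjusted p = 0.000775). RAB6B, the neuronal form of the Golgi RAB6, averaged 6.82 ± 0.13 in paraquat and 7.44 ± 0.23 in ctrl arrays, also without overlap, and fell by 0.62 ± 0.12 (adjusted p = 0.00349, n = 5 each). None of the 5 ARF genes passed: ARF1, the main recruiter of the COPI coat, had a change of 0.05 ± 0.08 and ARF3 one of -0.21 ± 0.08 (adjusted p = 0.761 and 0.110), ARF4 and ARF5 each had one of -0.13, and an unadjusted p under 0.05 was reached by 2 of the 5. RAB2A, a RAB between the endoplasmic reticulum and the Golgi, had a change of -0.15 ± 0.16 (adjusted p = 0.616). In RAB1A, which receives vesicles from the endoplasmic reticulum, the ctrl 11 value of 10.24 stood above 9.04 to 9.48 in the other ctrl arrays, and the change was 0.02.

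Of 4 GTPases of delivery to the plasma membrane, 1 fell and 0 rose (25% called, against 23.8% of all genes). RAB8A, which directs vesicles to the plasma membrane and the cilium, averaged 7.86 ± 0.10 in paraquat and 8.30 ± 0.20 in ctrl arrays (SD, n = 5 each) and fell by 0.44 ± 0.11 (limma adjusted p = 0.0124). RAB8B had a change of 0.08 ± 0.14 and RAB10, a RAB of the same subfamily, one of -0.20 ± 0.15 (adjusted p = 0.781 and 0.417). ARL14 lay at 2.29 in paraquat and 2.33 in ctrl arrays, within the dimmest 20% of rows (means up to 4.18).

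Of 4 GTPases of the cilium and microtubules, 1 fell and 0 rose (25% called, against 23.8% of all genes), and all 4 estimates were below 0. ARL3, which releases lipidated cargo inside the cilium, had 6.67, 6.98, 6.64, 6.47 and 6.55 in the paraquat arrays and 7.42, 8.06, 7.48, 7.48 and 7.21 in the ctrl arrays. The groups did not overlap, and ctrl 11 was the highest. ARL3 fell by 0.87 ± 0.15 (limma adjusted p = 0.00228) and by 0.74 without ctrl 11. ARL6, a Bardet-Biedl syndrome gene, and RAB23, a regulator of Hedgehog signalling, had changes of -0.40 ± 0.18 and -0.30 ± 0.21 (adjusted p = 0.155 and 0.385). Ctrl 11 raised the mean of these 4 genes to 7.497, against 6.70 to 6.97 in the other ctrl arrays.

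Of 3 ARL genes without a settled site, ARL15 fell and 0 rose (33.3% called, against 23.8% of all genes). ARL15, a partner of the CNNM magnesium transporters, had 4.58, 4.39, 4.78, 3.80 and 4.71 in the paraquat arrays and 5.76, 5.44, 5.55, 5.71 and 5.63 in the ctrl arrays. The groups were far apart and paraquat 18 was the lowest. ARL15 fell 2.24-fold, with a log2 change of -1.16 ± 0.17 (limma adjusted p = 0.000651), and its paraquat mean of 4.45 lay close to the dimmest 20% of rows. ARL9 had a change of 0.41 ± 0.14 (adjusted p = 0.0592) and ARL11 one of -0.14 ± 0.10 (adjusted p = 0.439), both in dim rows.

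Among the 11 partner proteins 2 fell and 0 rose (18.2% called, against 23.8% of all genes). ARL6IP5, a PRA1 family protein of the endoplasmic reticulum that restrains the glutamate transporter EAAC1 in rodents, had 9.29, 8.98, 9.26, 8.98 and 8.98 in the paraquat arrays and 10.17, 10.50, 10.08, 10.23 and 10.04 in the ctrl arrays. Every paraquat array was below every ctrl array. It fell 2.15-fold, with a log2 change of -1.1048 ± 0.11 (limma adjusted p = 5.82e-05). ARL2BP, an effector of ARL2 and ARL3, averaged 9.15 ± 0.11 in paraquat and 9.67 ± 0.23 in ctrl arrays (SD, n = 5 each) and fell by 0.52 ± 0.12 (limma adjusted p = 0.00885). ARL6IP4 had a change of -0.34 ± 0.11, and RAB11FIP1 and RAB11FIP2, effectors of RAB11, changes of 0.29 ± 0.10 and 0.16 ± 0.12 (adjusted p = 0.0508, 0.0559 and 0.429). At the threshold, RAB38, RAB5A and RAB22A were the last genes called (adjusted p of 0.0302, 0.0319 and 0.0398), and ARL6IP4, RAB11FIP1 and ARL9 the nearest not called. The pseudogene RAB9BP1 had a change of 0.08 (adjusted p = 0.570) in the dimmest 20% of rows.

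Close relatives did not always change alike. For 16 pairs of paralogues with both genes measured, the log2 difference between the genes was taken within each array and compared between groups by an exact two-sided permutation test, adjusted over the 16 pairs. This compares changes and not levels, since probes of different genes bind with different strength. The difference passed for 6 pairs. RAB39A and RAB39B had log2 changes that differed by -1.45 ± 0.12 (first gene minus second, SE from the spread of the arrays, exact p = 0.00794, adjusted p = 0.0254), and the within-array differences did not overlap between groups. The exact p of 0.00794 is the smallest that 5 against 5 arrays can give. RAB33A and RAB33B differed by -1.20 ± 0.21, RAB22A and RAB31 by 0.85 ± 0.10, RAB26 and RAB37 by -0.65 ± 0.08, and RAB8A and RAB8B by -0.52 ± 0.09 (each with exact adjusted p = 0.0254). In the first 3 of these 5 pairs the genes were called in opposite directions, and in RAB26/RAB37 and RAB8A/RAB8B 1 gene fell and the other did not pass. RAB37 averaged 4.21 in paraquat and 4.17 in ctrl arrays, close to the dimmest 20% of rows (means up to 4.18). Fold changes shrink in dim rows, so the RAB26 and RAB37 pair cannot tell a different change from a low signal.

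The sixth pair, ARF1 and ARF3, differed by 0.25 ± 0.07 (exact permutation p = 0.0159, adjusted p = 0.0423), with neither gene called, and the call was lost without any array other than paraquat 14 or ctrl 11 (adjusted p between 0.0544 and 0.0635). The RAB33A and RAB33B call was lost without ctrl 13, ctrl 17 or ctrl 19 (adjusted p = 0.0508 in each case). RAB32 and RAB38 differed by 0.67 ± 0.22 (exact p = 0.0238, adjusted p = 0.0544) and RAB3A and RAB3B by -0.66 ± 0.28 (exact p = 0.0476, adjusted p = 0.0952), and neither passed. For RAB11A and RAB11B the difference was -0.74 ± 0.41 (exact permutation p = 0.111, adjusted p = 0.156), with a wide spread in both groups.

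**Figure D3:**
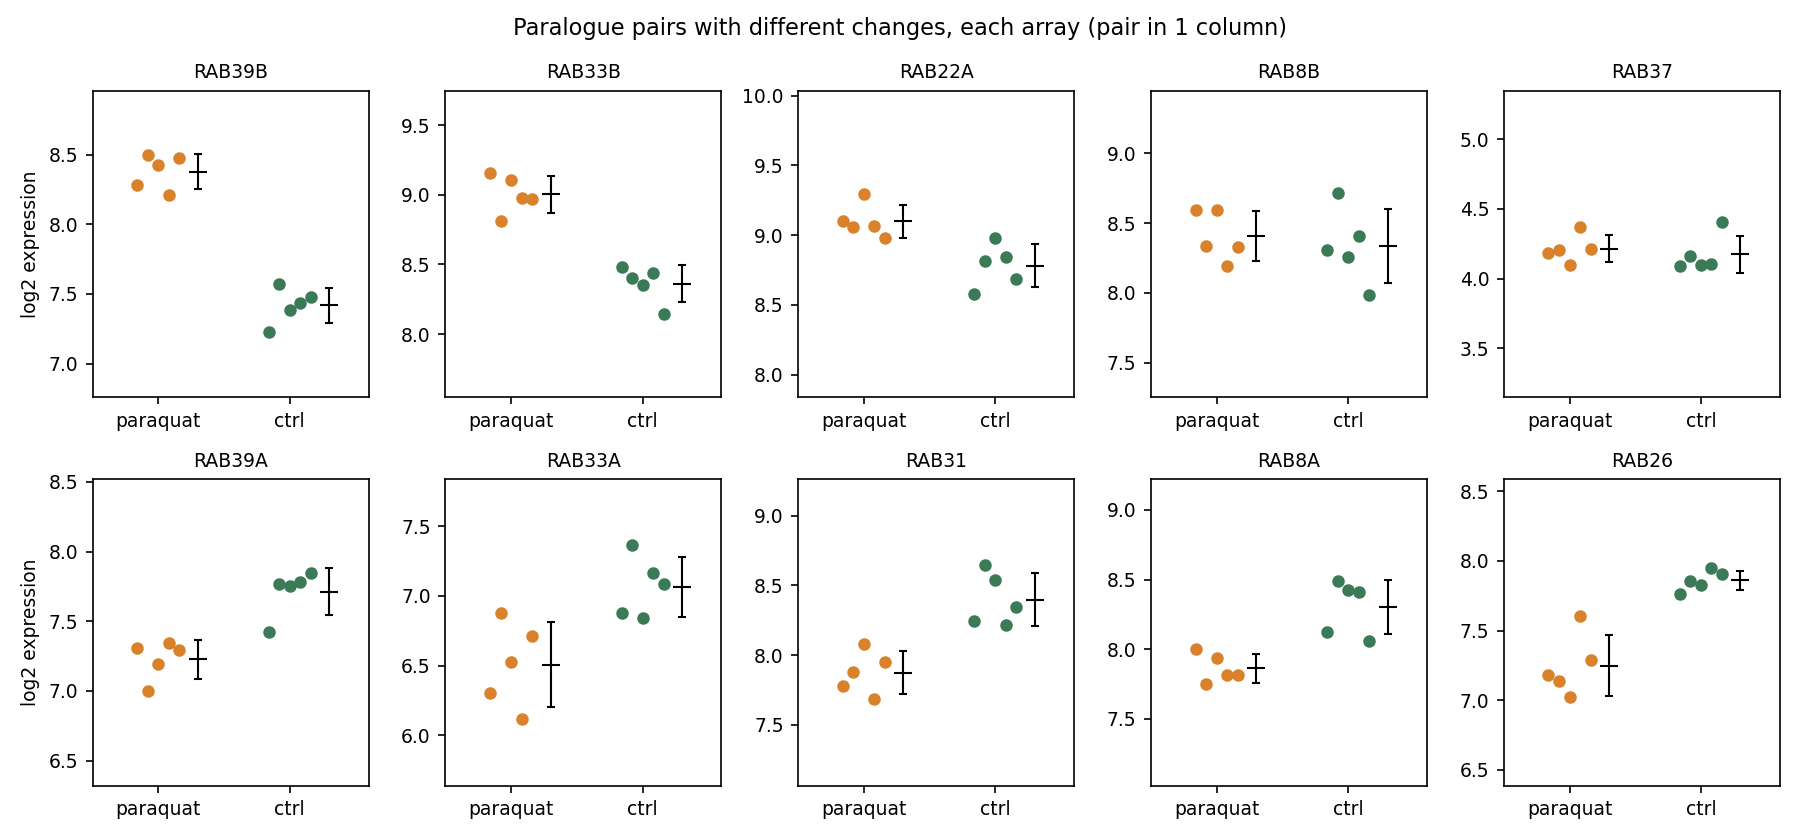
Log2 expression in each array for 5 pairs of paralogues, 1 pair per column, paraquat left and ctrl right in each panel. Points are arrays and black marks the mean with SD over 5 arrays, and panels span equal ranges of log2 units. RAB39B, RAB33B and RAB22A lie higher in paraquat, with RAB39A, RAB33A and RAB31 under them lower in paraquat, and RAB8B and RAB37 show overlapping groups.

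The compartment means differed in how far a single array moved them. For the secretory granule group the paraquat arrays lay between 6.15 and 6.30 and the ctrl arrays between 6.57 and 6.70, and ctrl 11 lay among the other ctrl arrays at 6.58. For the endoplasmic reticulum and Golgi the groups overlapped, at 8.90 to 9.22 in paraquat and 8.95 to 9.40 in ctrl arrays. They overlapped also for early and recycling endosomes (8.42 to 8.61 against 8.39 to 8.62) and for late endosomes and lysosomes (7.41 to 7.52 against 7.42 to 7.64). Ctrl 11 was the highest ctrl array for cilium and microtubule genes (7.497), the endoplasmic reticulum and Golgi (9.40), delivery to the plasma membrane (7.53) and both endosomal groups (8.62 and 7.64).

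**Figure D4:**
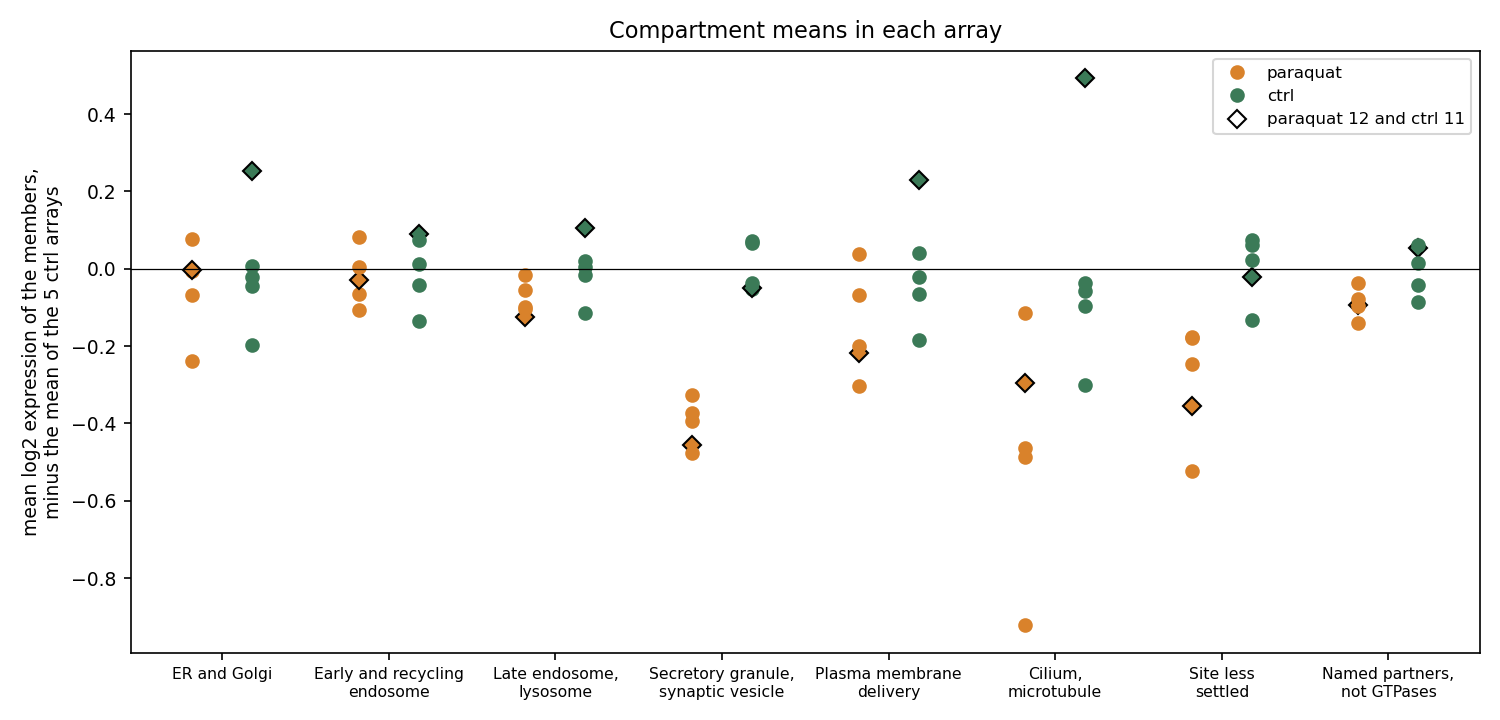
Mean log2 expression of the genes of each compartment in each array, given as the difference from the mean of the 5 ctrl arrays, with paraquat left and ctrl right. Diamonds with a black edge are paraquat 12 and ctrl 11. The secretory granule group and the 3 ARL genes without a settled site show no overlap between groups.

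Regulators and effectors of these GTPases were examined from lists of exchange factors, activating proteins, prenylation and membrane factors and effectors. Outside the 72 genes, 156 of them were measured, of which 14 rose and 19 fell (8.97% and 12.2%, against 9.55% and 14.2% of all genes), a share near the background. The single lists given next also hold some of the 72 genes, such as RAB3IP, RAB11FIP1 and ARL2BP, and PLEKHM2 stands in both effector lists. By list, the share called in either direction lay between 13.6% and 29.6%, against 23.8% of all genes. Of 29 RAB exchange factors, 4 rose and 2 fell. RIN1, an exchange factor for RAB5, rose by 0.72, RIC1, part of the RAB6 exchange factor, by 0.59, HPS1, part of the exchange factor for RAB32 and RAB38, by 0.56 and DENND2D by 0.56. TRAPPC1 and TRAPPC9, subunits of the TRAPP complexes that act on RAB1 and RAB11, fell by 0.63 and 0.53. Of 41 genes listed as RAB effectors, 5 rose and 2 fell. EEA1, the early endosome tether bound by RAB5, averaged 7.03 in paraquat and 6.30 in ctrl arrays and rose by 0.74 (limma adjusted p = 0.0117). MICALL1 and MICALL2, effectors of the RAB8 and RAB13 subfamily, rose by 0.62 and 0.50, and PLEKHM2, which links ARL8 lysosomes to kinesin, by 0.52. RILP, which joins RAB7 to dynein, rose by 0.47. EHBP1, a partner of RAB8 and RAB10, fell by 0.56, and RIMS4, of the RIM family of the presynaptic release site, by 0.42.

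Of 27 RAB GTPase-activating proteins, 2 rose and 6 fell (7.41% and 22.2%, against 9.55% and 14.2% of all genes). TBC1D22B rose by 1.01 and TBC1D10A, which acts on RAB27A and RAB35, by 0.70, while TBC1D4, the insulin-regulated protein acting on RAB10, fell by 0.81 and TBC1D5, which acts on RAB7 with retromer, by 0.72. TBC1D16, SGSM2, SGSM3 and EVI5L fell by 0.34 to 0.47. Of 9 prenylation and membrane factors, CHML, a RAB escort protein, fell by 0.74, RABAC1, a PRA1 family protein like ARL6IP5, by 0.60, and 0 rose. Of 15 genes listed as ARF exchange factors, FBXO8 fell by 0.82, and PSD2 and CYTH4 rose by 0.29 and 0.28. Of 22 ARF GTPase-activating proteins, ELMOD1 fell by 0.93, ASAP3 by 0.51 and ARFGAP1, the COPI-associated member, rose by 0.49. Of 22 ARF and ARL effectors, PLEKHM2 rose and 5 fell, namely ARL2BP, the tubulin cofactor TBCD (-0.45), the lysosome-positioning BORCS5 (-0.40), RP2, which acts on ARL3 (-0.37), and the clathrin adaptor GGA2 (-0.37).

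**Figure D5:**
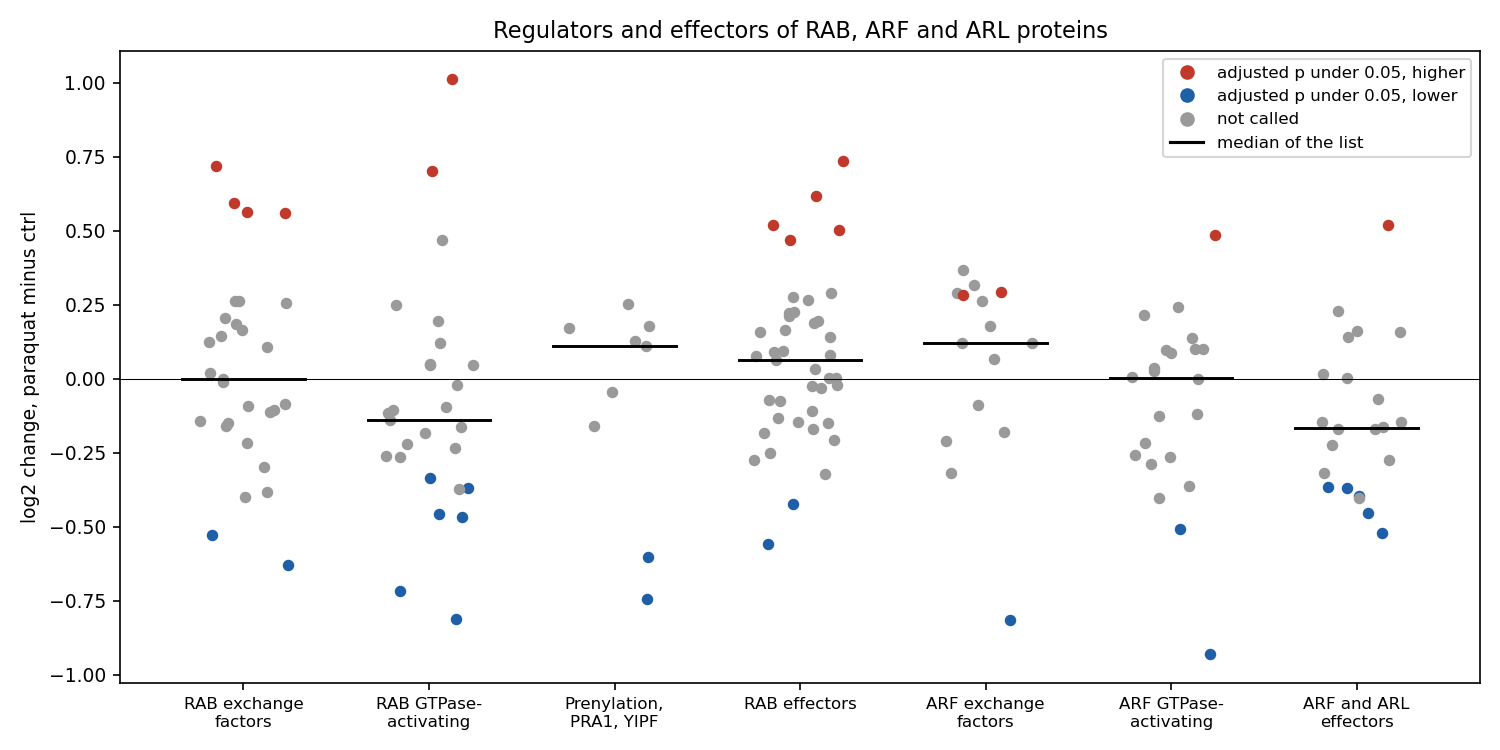
Log2 change, paraquat minus ctrl, of each measured gene in 7 lists of regulators and effectors, with horizontal scatter added only for legibility. Red points rose, blue points fell and grey points were not called, and the black line is the median of a list. Medians lie between -0.17 and 0.12, and TBC1D22B, at 1.01, is the highest point.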

How the data were processed

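Expression was measured on Affymetrix exon arrays of SH-SY5Y RNA, 5 paraquat and 5 ctrl arrays grouped by their titles. The authors deposited log2 expression values made with RMA, per the submitters' processing notes. Software, version, filters and build are not stated there, and log2 was read from the range of values, 1.07 to 14.37. RMA draws dim rows together, which shrinks their fold changes, and a row pools the exons of a locus, so altered use of single exons is not seen. For each row, paraquat was compared with ctrl in limma 3.58.1 (R 4.3.3), using lmFit and eBayes, with 8 residual and 3.06 prior degrees of freedom, two-sided, with no filter or added scaling. The p-values were adjusted by Benjamini-Hochberg over 22011 rows, and gene-level adjusted p-values in the text are limma's. The script was tested on simulated data. The number of arrays limits precision: the median SE over the 72 genes was 0.12. Rows with several symbols did not stand for a gene. Of the 72 symbols, 72 matched RefSeq (GRCh38.p14), which served for names and promoters. Alternatives were other scalings, a filter on dim rows, array weights, other thresholds, the lowest row per gene, arrays left out and a block of consecutive title numbers added after seeing the data. The genes, lists, compartments, pairs and tests were chosen with earlier results of these data known, and the compartments, which follow general knowledge, place several genes with more than 1 site in only 1. The rule for naming was every called gene, up to 2 not called per compartment, passing pairs, the 3 genes on either side of the threshold, and up to 4 called genes per list. Further genes were named, and the promoter motifs chosen, after values were seen.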

Additional observations from a re-analysis of the deposited data

Results flagged for a closer look

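In 6 of 78 groups of 5 arrays, 1 array stood far from the other 4, with a gap to the nearest array over 0.71 of the group's range. Chance gives such a gap in about 1 in 20 groups. RAB42 had 4.57 in paraquat 12, against 4.98 to 5.15 in the other paraquat arrays (ratio of gap to range 0.713). RAB39A had 7.42 in ctrl 7, against 7.75 to 7.84 in the other ctrl arrays (0.784). RAB11A had 11.28 in ctrl 11, against 10.39 to 10.64 (0.712), and RAB3B had 6.16 in the same array, against 6.58 to 6.66 (0.844). ARL9 had 3.17 in ctrl 19, against 3.59 to 3.76 (0.72), and RAB37 had 4.41 in that array, against 4.09 to 4.17 (0.765). RAB42 and RAB39A, the only called genes among these 6, had all paraquat arrays below all ctrl arrays with these arrays included.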

How the results depend on the processing

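The groups share no replicate number and the labels state no pairing. The titles run in consecutive numbers (ctrl 7 and paraquat 8, and so on), so a fit with the 5 couples as a replicate block was added after seeing the data. The correlation of a couple's deviations from the group means, across rows, was 0.0912 to 0.461, over 0.1 in 4 of 5 couples, against -0.358 to 0.317 between other arrays of the 2 groups, so a pairing is a hint from the data and not the design. With this block all rows called came to 5379. All 19 genes stayed called, and 4 more passed, namely RAB11A (adjusted p = 0.0138), ARL6IP4 (0.0289), RAB11FIP1 (0.0319) and ARF6 (0.0397), by limma, so that 3 early endosomal genes fell and 1 partner rose. Of the 19 called genes, 6 stayed called in every setting they were tested in and 0 changed direction, and the cause of the lost calls below was not tested unless the setting itself makes the rule stricter or leaves fewer arrays. With quantile normalization 1 partner rose. With median centring 1 partner and 1 GTPase without a settled site rose. With dim rows removed 1 partner rose, and 0 GTPases without a settled site fell because the row of ARL15 was itself removed. With array weights 7 of the 72 genes rose, with 1 early endosomal, 2 late endosomal, 1 granule, 1 unsettled and 1 partner gene among the raised, 2 early endosomal and 2 Golgi genes among the lowered, and 31 regulators lowered. At an adjusted p under 0.01, all rows called came to 2492, and 12 of the 19 genes, 2 raised genes and 2 granule genes stayed, with 0 raised early endosomal and 0 lowered plasma membrane genes, and 9 regulators rose and 8 fell. With a minimum fold of 1.2 tested, all rows called came to 1648, and 6 of the 19 genes stayed, 2 raised and 4 lowered, of which 1 late endosomal gene and 1 partner fell, with 0 called among granule, Golgi (lowered), early endosomal and plasma membrane genes, and 5 regulators rose and 2 fell. Without both ctrl 11 and paraquat 12, 1 early endosomal gene rose and 2 fell, and 0 pairs passed, since 4 against 4 arrays allow no exact p under 0.0286 and no adjusted p under 0.0508.

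With 1 array left out, 3396 to 4708 rows were called, 2 to 4 genes rose and 12 to 16 fell, the median change was -0.09 to -0.04, 14 to 17 of the 19 genes stayed, 12 to 15 regulators rose and 14 to 23 fell, and 4 to 9 pairs passed. By compartment, 3 to 5 granule genes fell, 0 to 1 early endosomal genes rose and 1 to 2 fell, 1 to 2 late endosomal genes rose and 2 to 3 fell, 0 to 1 partners rose and 2 to 3 fell, and 0 to 1 GTPases without a settled site rose. The estimates that changed sign, all of genes or pairs not called, were those of RAB37, RAB5C, RAB3B, RAB8B and 2 pairs. RAB37 was -0.012 after quantile normalization, and the difference of RAB34 and RAB36 was -0.24 with the lowest row per gene. RAB5C was -0.094 with array weights, -0.0076 without both arrays and -0.084 to 0.101 with 1 array left out. With 1 array left out, RAB3B was -0.184 to 0.013 and positive only without paraquat 12, RAB8B was -0.012 to 0.171 and negative only without ctrl 19, and the difference in the pair ARF4/ARF5 was -0.122 to 0.127 and negative without paraquat 12, paraquat 20, ctrl 13 or ctrl 17. With 5 arrays per group and a median SE of 0.12, a change had to be several times its SE to be called. RAB22A passed at 0.32 ± 0.10, and ARL6IP4 at -0.34 ± 0.11 did not. A gene not called is therefore not shown to be unchanged.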

Other observations

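A further 20 rows carried a RAB, ARL or ARF symbol together with another symbol, so that their values cannot be given to 1 gene. Of these, 4 were lower and 1 was higher in paraquat arrays by limma. The row of RAB1B and RAB1C had a log2 change of -0.69 (limma adjusted p = 0.00648), that of RAB30 and SNORA70E one of -0.76 (adjusted p = 0.00528), that of SHCBP1 and RAB43 one of -1.04 (adjusted p = 0.000475), that of MPV17L2 and RAB3A one of -0.31 (adjusted p = 0.0347), and that of LVRN and ARL14EPL one of 0.33 (adjusted p = 0.0139). The single-symbol row of RAB43 had a change of 0.05 (limma adjusted p = 0.867). Among the shared rows not called, that of RCC1, SNHG3 and RAB42 had a change of -0.06 (adjusted p = 0.756). That of PP2D1 and RAB5A, a dim row, had -0.03 (adjusted p = 0.889). RAB3IP, an exchange factor for RAB8, and RAB36 each had a second, dimmer row with a change of the opposite sign: 0.12 and -0.36 for RAB3IP and -0.22 and 0.31 for RAB36, none of them called.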
